A study of Mus musculus with 4 samples.

Results

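The endothelium of day 11 gastruloids was taken as the cells of the day 11 library that held at least 2000 unique molecular identifiers (UMIs, each counted as 1 captured transcript) with a mitochondrial share under 20%, that carried at least 1 UMI of at least 3 of the 6 genes *Cdh5*, *Pecam1*, *Tie1*, *Esam*, *Emcn* and *Tek*, and in which *Myl7* stayed under 30 UMIs per 10000. This gave 535 of the 8730 kept day 11 cells, or 6.13% (95% Clopper-Pearson interval 5.63 to 6.65%). The cells were thus selected on the UMIs of those genes and of *Myl7*, whose values are given only as a description. In the whole series 31330 barcodes were deposited.

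Gastruloids are aggregates of mouse embryonic stem cells, here of the wild type Zx1 line, that develop some of the cell types of the embryo. They were treated with the Wnt agonist Chiron early in culture, given the cardiogenic factors bFGF, VEGF and ascorbic acid from day 4 for some days, kept in N2B27 medium afterwards, pooled at each day, dissociated with trypsin and sequenced as 1 droplet-based 3′ library per day at days 4, 5, 6 and 11. All groups share this line and culture, and the days differ in the length of culture and in the medium at harvest. With 1 library per day no comparison between days or cells has a replicate check. All intervals below are 95% intervals that cover counting error only (Poisson for a level, conditional binomial for a ratio, Clopper-Pearson for a share), and day and library cannot be told apart.

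Endothelial cells line blood vessels, and their VE-cadherin junctions, VEGF receptors and ETS and SOX family transcription factors are shared by most vascular beds. Arteries, veins, capillaries, lymphatics and the endocardium, the inner lining of the heart, add their own programmes, so that Notch signalling and SOX17 mark arterial cells, COUP-TFII (*Nr2f2*) venous cells, and NFATc1 and the natriuretic peptide receptor NPR3 endocardial cells. The VEGF added to these cultures is the main growth factor of the lineage.

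Depth was high in the chosen cells. The 535 cells held 16073403 UMIs in all, with a median of 19988 per cell (range 2033 to 176705) and a median of 4352 genes, against a median of 11790 UMIs in the 8195 other day 11 cells. A deeper cell finds more of the rule genes: the median was 11659 UMIs in cells with 3 of them and 34142 in cells with all 6. Levels below are CPM, the UMIs of a gene per 1000000 UMIs summed over a set of cells, and shares of positive cells are given after each cell was thinned at random to 5000 UMIs, which left out 28 endothelial and 312 other cells. As a background for free RNA, 1044 cells with *Myl7* of at least 100 per 10000 UMIs and fewer than 3 rule genes were used, in which endothelial genes should be silent (median 19819 UMIs). With 973 of them thinned, a share of 0 allows up to 0.308%. Between 5 and 23 barcodes were shared by any 2 libraries, of which 1 endothelial barcode was shared with day 4 and 1 with day 5.

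The rule split the library at a sparsely filled place. Of the kept day 11 cells 7515 carried none of the rule genes and 574 carried 1, 61 carried 2 and 39 carried 3, and the numbers were larger again at 88, 185 and 268 with 4, 5 and 6. Of those under the *Myl7* limit 55 carried 2 and 34 carried 3, and the levels that follow are theirs. *Ctla2a*, an endothelial gene that the rule did not use, stood at 13.4 CPM with 1 rule gene, 265 CPM just outside the limit with 2, and 1220.0 CPM just inside it with 3. For *Cldn5*, the tight junction claudin of endothelium, those levels were 0.571, 11.6 and 81.0 CPM. A further 45 cells had at least 3 rule genes but failed the *Myl7* limit, among them 5 between 30 and 40 per 10000 UMIs against 2 cells kept between 20 and 30. Those cells had *Ctla2a* at 579 CPM beside the atrial light chain *Myl7* at 10746 and the cardiac troponin *Tnnt2* at 2521 CPM, and they stayed among the other cells.

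**Figure D1:**
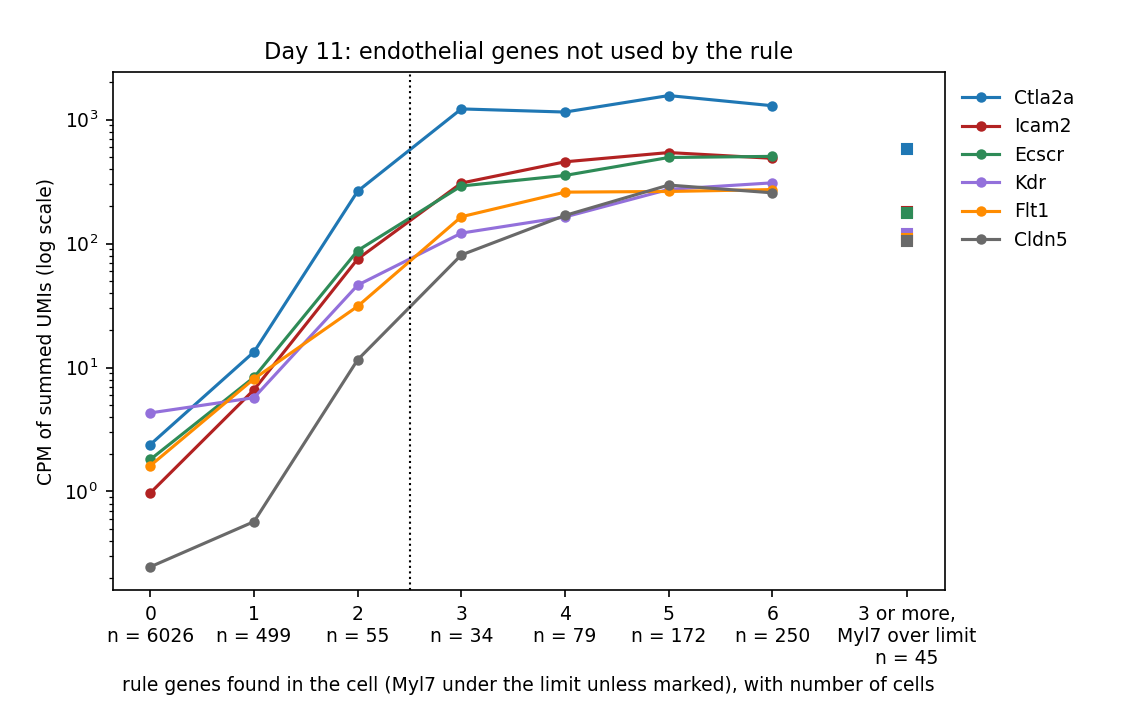
Levels of 6 endothelial genes that the rule did not use (CPM of summed UMIs, log scale) in day 11 cells grouped by how many of the 6 rule genes they carried, with squares for the 45 cells that had at least 3 but exceeded the *Myl7* limit. All 6 genes lie higher with 2 rule genes than with 1 and higher again with 3, where the dotted line marks the rule's limit.

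The label held on the given markers that the rule did not use, *Ctla2a*, *Icam2* and *Ecscr*. *Cdh5* and *Pecam1*, which the rule used and which are therefore no support, stood at 260.4 and 288 CPM. *Ctla2a*, a cysteine protease inhibitor, stood at 1349.8 CPM (1332 to 1368) against 16.9 CPM in the other cells, a ratio of 79.9 (76.5 to 83.5), and was found in 91.5% of thinned endothelial cells, 1.73% of thinned other cells and 0.514% of the thinned *Myl7*-high cells. *Icam2*, an adhesion molecule constitutive to endothelium, was at 495 against 5.52 CPM and in 86.4% against 1.01% of cells. *Ecscr*, an endothelial surface protein of cell migration, was at 486 against 6.23 CPM and in 83.2% against 1.45% of cells. In the *Myl7*-high cells *Icam2* and *Ecscr* were each found in 0.411%.

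Across the genome 8922 genes reached 10 CPM in the endothelium or in the other cells. Of these 802 (8.99%) were at least 2 times higher in the endothelium and 1249 (14.0%) were at 0.5 times or less, and the median ratio over all of them was 0.881. Since the cells were chosen by genes of the same library, the counts that follow describe the cells and are read against these shares. The 20 genes with the highest ratios, among those with at least 50 CPM and outside the rule, were *Esm1*, *Gpihbp1*, *Cldn5*, *Myct1*, *Icam2*, *Gja4*, *Gimap4*, *Ctla2a*, *Cd93*, *Ecscr*, *Clec1b*, *Sox7*, *Kcne3*, *Gimap1*, *Gimap6*, *Thsd1*, *Adgrf5*, *Flt1*, *Rasip1* and *Gpr182*. Their ratios ran from 60.5 for *Gpr182* to 179.8 for *Esm1* (132 to 250.1), a proteoglycan secreted by sprouting tip cells. Among them the GIMAP genes encode GTPases known mostly from lymphocytes, *Cd93* and *Clec1b* C-type lectin receptors, *Adgrf5* and *Gpr182* membrane-spanning receptors of endothelium, *Rasip1* an effector needed for vessel lumens and *Kcne3* a potassium channel subunit used as a tip cell marker. *Kcne3* was at 283 against 3.81 CPM, the highest level of the tip cell list.

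Genes of general endothelial identity were nearly all high. All 21 of 21 measured members of that list were at least 2 times higher, with a median ratio of 58.0, and their summed level was 5914 CPM against 173. The smallest ratio was that of *Egfl7*, a secreted factor of vessel tube formation, at 681 against 59.1 CPM. *Cldn5* was at 256 CPM but was found in only 43.6% of thinned cells, whereas *Egfl7* was found in 91.5% and *Ramp2*, the adrenomedullin receptor partner, in 90.1%. *Plvap*, the protein of fenestral diaphragms, was at 141 CPM and in 40.8% of cells. In the *Myl7*-high cells these shares were 0% for *Cldn5*, 1.13% for *Ramp2* and 0.206% for *Plvap*, but 38.4% for *Egfl7*, above the 19.4% of all other cells, so a UMI of *Egfl7* did not mark endothelium here.

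The transcription factors of the lineage followed the same direction. Of 22 measured factors 21 were at least 2 times higher, with a median ratio of 12.1. Among the ETS factors *Erg* was at 43.9 CPM (ratio 39.2), *Fli1* at 79.0 (17.2) and *Ets1* at 266 (7.31). *Etv2*, the factor that starts the haematoendothelial lineage in the embryo, was almost silent at 1.31 CPM (0.809 to 2.00). The SOXF genes *Sox7*, *Sox17* and *Sox18*, which act in vessel formation, stood at 68.9, 69.1 and 32.8 CPM, and were found in 24.9%, 18.1% and 14.4% of thinned cells against at most 0.317% of the other cells and none of the thinned *Myl7*-high cells. *Etv6* was the factor that did not reach the limit, at 16.2 against 10.7 CPM.

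VEGF receptors were high and VEGF ligands were divided. *Kdr*, the main signalling receptor, was at 284 CPM (ratio 41.8), its decoy-like relative *Flt1* at 267 (62.1) and the VEGF-C receptor *Flt4* at 55.9 (37.5). The co-receptors *Nrp1* and *Nrp2* were less selective, with ratios of 2.66 and 2.38. Among the ligands *Vegfa* was at 81.9 against 103 CPM and *Vegfb* at 98.8 against 235, while *Vegfc* (30.4 against 11.4) and the placental growth factor *Pgf* (74.3 against 17.1) were higher in the endothelium. The angiopoietin ligand *Angpt1*, which acts on TEK, was at 3.55 CPM in the endothelium and 42.5 in the other cells, and *Ptprb*, the phosphatase that restrains TEK, was at 47.4 against 0.416 CPM.

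Notch and TGF-beta family genes were split by role. The Notch ligand *Dll4*, the receptors *Notch1* and *Notch4*, the glycosyltransferase *Mfng* and the target *Nrarp* were at ratios of 57.0, 4.19, 9.69, 15.8 and 4.30, while the smooth muscle receptor *Notch3* was at 0.474. In all, 6 of 11 measured Notch genes were at least 2 times higher and 2 at 0.5 times or less. For TGF-beta and BMP signalling the counts were 5 and 4 of 16. The endothelial type I receptor *Acvrl1* (ratio 19.5), the co-receptor *Eng* (18.4) and the ligand *Tgfb1* (16.9) were high, whereas *Bmp4* (0.205), *Tgfb2* (0.294) and the receptor *Bmpr1a* (0.409) were low.

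Most basement membrane genes and most genes of flow and vascular tone were higher in the endothelium. Of 11 measured basement membrane genes 7 passed the limit, led in level by *Sparc*, a collagen-binding matrix protein, at 1638 against 536 CPM and by the type IV collagen chains *Col4a1* (613 against 81.2) and *Col4a2* (313 against 49.9). Of 12 tone and flow genes 11 passed it. They included the nitric oxide synthase *Nos3* at 57.2 against 2.23 CPM, the endothelin receptor *Ednrb* at 304 against 26.8 and the flow-induced factor *Klf2* at 127 against 17.4. The exception, the prostacyclin synthase *Ptgis*, was at 3.61 against 16.8 CPM.

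Among genes of lipid uptake *Fabp5* had the highest level. *Fabp5*, a fatty acid binding protein, was at 4855 CPM (4821 to 4889.6) against 1156 in the other cells. *Fabp4*, its relative in capillary endothelium, was at 577 against 9.71 CPM and *Gpihbp1*, which carries lipoprotein lipase to the capillary lumen, at 281 against 2.15. Whereas *Fabp5* was found in 99.2% of thinned endothelial cells, *Fabp4* was found in 26.0% and *Gpihbp1* in 29.8%, so that their UMIs lay in a minority of the cells. The *Myl7*-high cells had *Fabp4* in 1.13%, *Gpihbp1* in 0% and *Fabp5* in 59.9%. The lipase itself, *Lpl*, was lower in the endothelium (22.7 against 73.2 CPM), and the fatty acid transporter *Cd36* was low in both (4.73 and 6.68 CPM). Of this list 6 of 7 measured genes were at least 2 times higher than in the other cells.

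Arterial and venous genes were both present. Of the arterial list 8 of 8 measured genes were at least 2 times higher, with a median ratio of 8.42, and of the venous list 5 of 6, with a median of 16.7. The connexin *Gja4*, which couples arterial endothelial cells, was at 104 against 1.17 CPM, and the ephrin *Efnb2* and its venous receptor *Ephb4* were at 61.9 and 30.9 CPM against 21.3 and 8.74. The arterial connexin *Gja5*, at 6.16 CPM, and the Notch ligand *Jag1*, at 8.59, were under 10 CPM. *Aplnr*, the apelin receptor of veins, was at 12.4 against 0.416 CPM and its ligand *Apln* at 21.3 against 3.30, while *Nr2f2* was at 119.6 against 158. Of the endocardial list 5 of 10 were higher and 2 at 0.5 times or less, with *Npr3* at 78.5 against 14.1 CPM and *Nfatc1* at 29.1 against 2.41.

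Junction, guidance and coagulation genes varied more. Of the junction list 5 of 11 were at least 2 times higher, *Jcad*, a cell junction protein of endothelium, at 65.9 against 7.49 CPM, while the catenin *Ctnnb1*, used in all adherens junctions, was at 288 against 188. Of the guidance list 9 of 13 were higher, led by the semaphorin receptor *Plxnd1* (201 against 8.78), and 2 were lower, the ligands *Slit2* (11.0 against 41.8) and *Slit3* (3.55 against 32.6). Of the leukocyte adhesion and coagulation list 6 of 7 were higher. They included the protein C receptor *Procr* (48.7 against 1.30 CPM) and the tissue factor inhibitor *Tfpi* (135 against 37.4), while *Vcam1* was at 11.7 against 33.3. Of the proliferation list 0 of 12 genes passed the limit in either direction (median ratio 0.899), of glycolysis and hypoxia genes 2 of 16 were higher, and of interferon genes 3 of 5. Of the 2 measured genes of the angiopoietin system *Ptprb* was higher and *Angpt1* lower, with the values given above.

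Markers of some specialised endothelia were weak or absent. The blood-brain barrier transporters *Mfsd2a* and *Slco1c1* had 3 and 2 UMIs in all the cells, and only 1 of 10 genes of that list reached 10 CPM in either set, the glucose transporter *Slc2a1* with a ratio of 0.979. Among lymphatic genes *Lyve1*, a hyaluronan receptor that is also found on some blood endothelium, was at 21.8 against 0.961 CPM, but the lymphatic master factor *Prox1* was at 9.08 against 21.9 and *Pdpn* at 2.18 against 17.8. No UMI of *Ccl21a* or of the platelet and endothelial selectin *Selp* was found, and a count of 0 allows up to 0.187 CPM. *Vwf*, which is stored with it in mature endothelium, was at 14.1 CPM in 6.71% of cells. Blood-forming genes were low: *Runx1* was at 2.43 CPM and *Spi1* at 1.18, *Gfi1* and *Gfi1b* had no UMI, and the receptor *Kit* was the 1 gene of that list to reach 10 CPM, at 75.5 against 5.74 CPM.

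**Figure D2:**
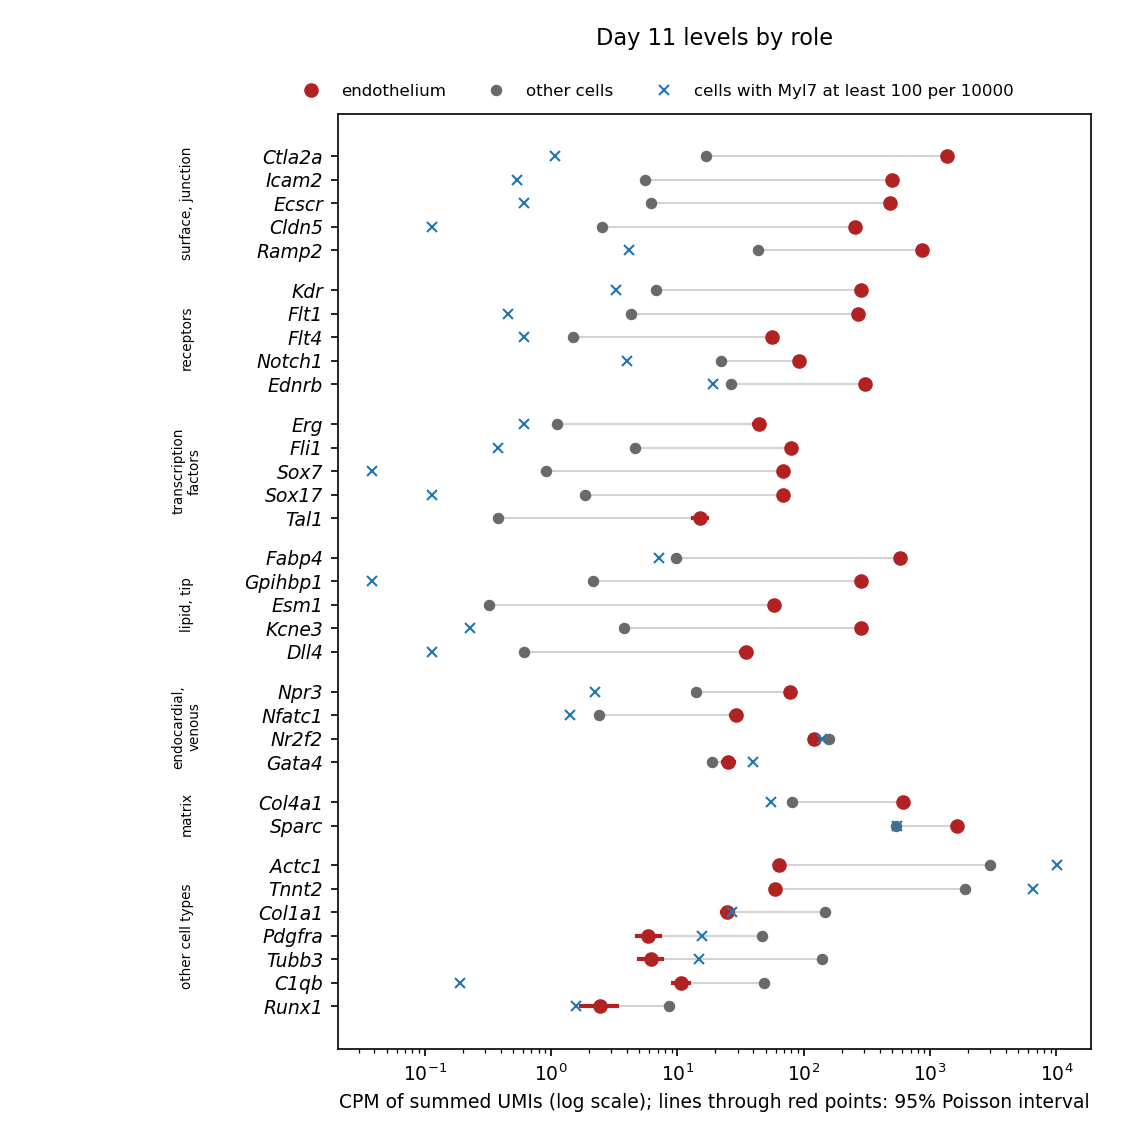
Levels at day 11 of 33 genes grouped by role (CPM of summed UMIs, log scale) in the endothelium (red, with 95% Poisson interval), in all other cells (grey) and in cells with *Myl7* of at least 100 per 10000 UMIs and fewer than 3 rule genes (blue crosses, left out where 0). Endothelial genes lie to the right in red, *Nr2f2* and *Gata4* are nearly level, and the 7 markers of other cell types lie to the left in red.

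Markers of the other day 11 cell types were low in the chosen cells, where the *Myl7* limit itself selects against muscle. All 10 cardiomyocyte markers were at 0.5 times or less, with a summed level of 298 against 9124 CPM, and all 10 mesenchyme markers were too (214 against 1248 CPM). The counts were 7 of 8 for neural genes, 6 of 7 for mural genes and 6 of 7 for macrophage genes. They were 5 of 6 for endoderm, with *Sox17* as the exception, and 3 of 3 for skeletal myoblast genes. The erythroid, megakaryocyte and neural crest lists had no gene at 10 CPM in either set, and the erythroid list summed to 1.49 CPM. The 15 lowest ratios among genes with at least 50 CPM in the other cells belonged mostly to striated muscle and endoderm. The sarcoplasmic reticulum regulator *Sln* was at 0.373 against 58.2 CPM, and *Myl1*, *Csrp3*, *Asb2*, *Tesc*, *Smyd1*, *Mybpc3*, *Cox6a2*, *Hspb2*, *Cryab*, *Atcayos* and *Myl7* itself followed. Alpha-fetoprotein, *Afp*, was at 1.62 against 133 CPM, with *Rbp4* and *Apoa2*, a retinol carrier and an apolipoprotein, beside it. An exception among the markers was *Wt1*, listed here as an epicardial factor, at 48.5 CPM (45.2 to 52.1) against 17.1 and in 23.1% against 8.51% of thinned cells (1.54% of the *Myl7*-high cells). The other epicardial genes did not follow it, with *Tbx18* at 0.809 and *Upk3b* at 0.373 CPM. Of the genes of endothelial to mesenchymal transition 11 of 15 were low, and the intermediate filament *Vim* was high at 4078 against 1302 CPM.

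The chosen cells were not uniform. Clustering them without the listed genes and without a standard set of cell cycle genes gave 5 subgroups, of 152, 137, 110, 86 and 50 cells, numbered by size. These groups were found by expression and so are no test of anything about their genes. They differed in depth, with median UMIs of 23919.5, 15292, 25777, 15158 and 30344. All were cells of 1 library. None was given a cell type name.

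Subgroup 5 stood apart as cells with genes of other types. Of its 50 cells 44 (88%) were among the 8% of day 11 cells with the highest doublet scores, against 1.32% to 10.9% in the other subgroups. All 10 mesenchyme markers, 7 of 10 cardiomyocyte markers and 7 of 10 neural markers were at least 2 times higher there than in the remaining endothelium, against 9.30% of all 8271 genes with at least 10 CPM in it. The collagen gene *Col1a1* was at 135 CPM, against 9.23 CPM in the other 4 subgroups together, and the cardiac actin *Actc1* at 269 against 34.5. Of the endothelial to mesenchymal transition list 13 of 15 genes were at least 2 times higher in it. Over the whole endothelium 71 of 535 cells (13.3%) carried such a score, and at day 6 19.1%. Whether these cells were doublets was not tested. Without them 847 genes were at least 2 times higher and 1374 at 0.5 times or less against the other day 11 cells.

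Subgroup 1 had higher levels of most arterial and tip cell genes and lower levels of most endocardial genes. Against the remaining endothelium 8 of 11 arterial, 7 of 9 tip cell and 5 of 10 capillary and lipid uptake genes were at least 2 times higher in it, as were 4.94% of all 7009 genes with at least 10 CPM there. At 0.5 times or less were 8 of 11 endocardial genes, 2 capillary and lipid uptake genes and 1 arterial gene, against 10.2% of all genes with that level in the endothelium. The summed level of the capillary and lipid uptake list, most of it *Fabp5*, was 6979 CPM in subgroup 1, 6540.1 in subgroup 2 and 6878 in subgroup 4. The subgroup's leading genes were *Pgf*, *Fabp4*, *Chst1*, *Gpihbp1*, *Esm1*, *Depp1*, *Nts*, *Ptp4a3*, *Unc5b* and *Sox17*. *Fabp4* stood at 1403 CPM in subgroup 1, 52.2 in subgroup 2, 154 in subgroup 3, 50.7 in subgroup 4 and 365 in subgroup 5, and *Gpihbp1* at 681, 33.5, 46.8, 36.1 and 222. Both were thus highest in subgroup 1 and next highest in subgroup 5. *Nts*, which encodes the peptide neurotensin, was at 298 CPM in subgroup 1 and 3.22 in subgroup 2. The guidance receptor *Unc5b* was at 114 against 3.55 and the chemokine receptor *Cxcr4* at 69.8 against 0.645.

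Subgroup 2 had the highest summed levels of the endocardial and venous lists. Against the remaining endothelium 6 of 11 endocardial and 3 of 8 venous genes were at least 2 times higher in it, as were 3.98% of all 7609 genes with at least 10 CPM there. The endocardial list summed to 186, 915, 648, 559.8 and 380.3 CPM in subgroups 1 to 5 in turn, and the venous list to 247, 557, 387, 267 and 278. For the endocardial list subgroups 3 and 4 lay between subgroups 1 and 2, whereas the venous sum of subgroup 4 was close to that of subgroup 1. Subgroup 2 was led by *Spp1*, *Apoe*, *Isg15*, *Tnni1*, *Col23a1*, *Rasgef1b*, *Npr3*, *Lgals9*, *Nr2f2* and *Aldh2*. *Npr3* stood at 3.83 CPM in subgroup 1, 182 in subgroup 2, 119.9 in subgroup 3, 96.3 in subgroup 4 and 27.6 in subgroup 5. The heart factors *Gata4* and *Hand2*, which the endocardium shares with cardiac muscle, were at 54.8 and 107 CPM in subgroup 2 and at 3.46 and 12.4 in subgroup 1. *Nr2f2* was at 269 against 26.8, and the forkhead factors *Foxc1* and *Foxc2* were at 85.1 and 79.0 against 7.29 and 5.65. *Nr2f2*, close between the endothelium and the other day 11 cells as a whole, thus varied within the endothelium.

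Set directly against each other, subgroups 1 and 2 differed across whole lists. Over 8015 genes with at least 10 CPM in either, 508 (6.34%) were at least 2 times higher in subgroup 1 and 913 (11.4%) were at 0.5 times or less, with a median ratio of 0.813. All 11 endocardial genes were lower in subgroup 1, with a median ratio of 0.0883, as were 4 of 7 venous genes. Higher in subgroup 1 were 8 of 9 tip cell genes, 7 of 11 arterial genes, 8 of 12 basement membrane genes and 6 of 11 Notch genes. The arterial gene that ran the other way was *Bmx*, a kinase of arterial and endocardial endothelium, at 2.92 against 44.8 CPM. *Gja4*, an arterial connexin, was nearly level at 157 and 136 CPM, and the matrix protein *Fn1* was at 50.5 against 387. *Tek* was lower in subgroup 1 as well, at 22.6 against 139 CPM, a gene the rule used.

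**Figure D3:**
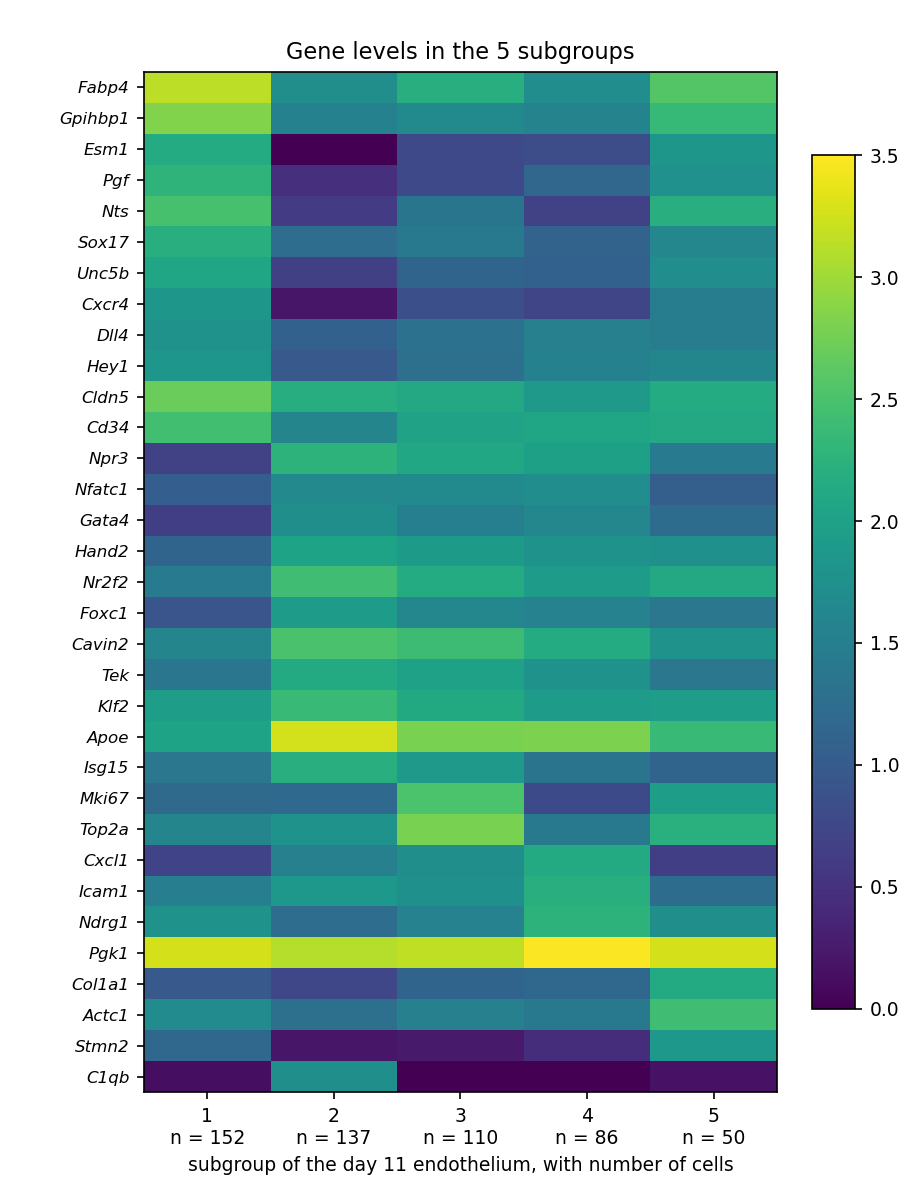
Levels of 33 genes (rows) in the 5 subgroups of the day 11 endothelium (columns), as log10(CPM + 1) of summed UMIs. *Fabp4* to *Cd34* are brightest in subgroup 1, *Npr3* to *Foxc1* are dimmer there than in subgroups 2 to 4, *Mki67* and *Top2a* are brightest in subgroup 3, and *Col1a1*, *Actc1* and *Stmn2* in subgroup 5.

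Subgroup 3 was led by mitotic genes such as *Plk1*, *Mki67* and *Top2a*. The standard cell cycle genes had been left out of the clustering, but other mitotic genes such as *Plk1* and *Prc1* had not. *Mki67* was at 319.8 CPM there and at 5.07 to 89.7 CPM in the other subgroups, and 11 of 12 proliferation genes were at least 2 times higher than in the remaining endothelium, against 5.27% of all 7710 genes with at least 10 CPM in it. *Cavin2*, a coat protein of caveolae, was at 249 CPM in it, 310.5 in subgroup 2 and 37.7 in subgroup 1, whereas *Sox17* was at 25.3, 17.1 and 156. Subgroup 4 was led by the chemokine *Cxcl1* (137 CPM), the hypoxia-induced *Ndrg1* (184), the leukocyte adhesion molecule *Icam1*, *P4ha2*, *Tgfbi*, *Selenbp1*, *Ndufa4l2*, *Ramp3*, *Dhrs7* and *Plod2*. Its glycolysis and hypoxia genes summed to 17557 CPM, against 8532 to 13965 CPM in the other subgroups, with *Vegfa* at 167 CPM and the glycolytic kinase *Pgk1* at 3061. Of the 16 genes of that list 3 were at least 2 times higher in subgroup 4 than in the remaining endothelium. The share over all genes was not counted for this subgroup. Subgroup 4 had the lowest median depth.

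*Fabp4* and *Npr3*, and likewise *Sox17* and *Npr3*, were rarely found in the same cell at day 11. Among 507 thinned day 11 endothelial cells 132 had a *Fabp4* UMI and 139 an *Npr3* UMI, and 4 had both. *Npr3* was thus found in 3.03% of the cells with *Fabp4* and in 36% of those without. *Fabp4* and *Gpihbp1* in contrast shared 91 cells, or 68.9% of the cells with *Fabp4*, against 16% of those without it. For *Sox17* and *Npr3* the cells with both numbered 5 of 92 with *Sox17*, so that *Npr3* was found in 5.43% of cells with *Sox17* and 32.3% of cells without. *Fabp4*, *Sox17* and *Npr3* are leading genes of subgroups 1 and 2. Pairs of arterial and venous genes varied. *Nr2f2* was found in 19.6% of cells with *Sox17* and 41.9% without, and in 35.7% with *Gja4* and 38.7% without. *Ephb4* was found in 23.4% of cells with *Efnb2* and 13.4% without.

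*Sox17* and *Npr3* overlapped more at day 6. Of 476 thinned day 6 endothelial cells 225 had *Sox17*, and *Npr3* was found in 30.7% of those and in 39.0% of the rest. For *Cldn5* and *Npr3* the shares were 32.6% and 38.7% at day 6 and 8.14% and 42.3% at day 11. *Npr3* was in contrast found more often in cells with *Gja4* than in cells without it on both days, in 42.4% against 32.7% of cells at day 6 and 39.3% against 22.9% at day 11. All of these cells come from 1 library a day, and the joint counts carry no test.

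**Figure D4:**
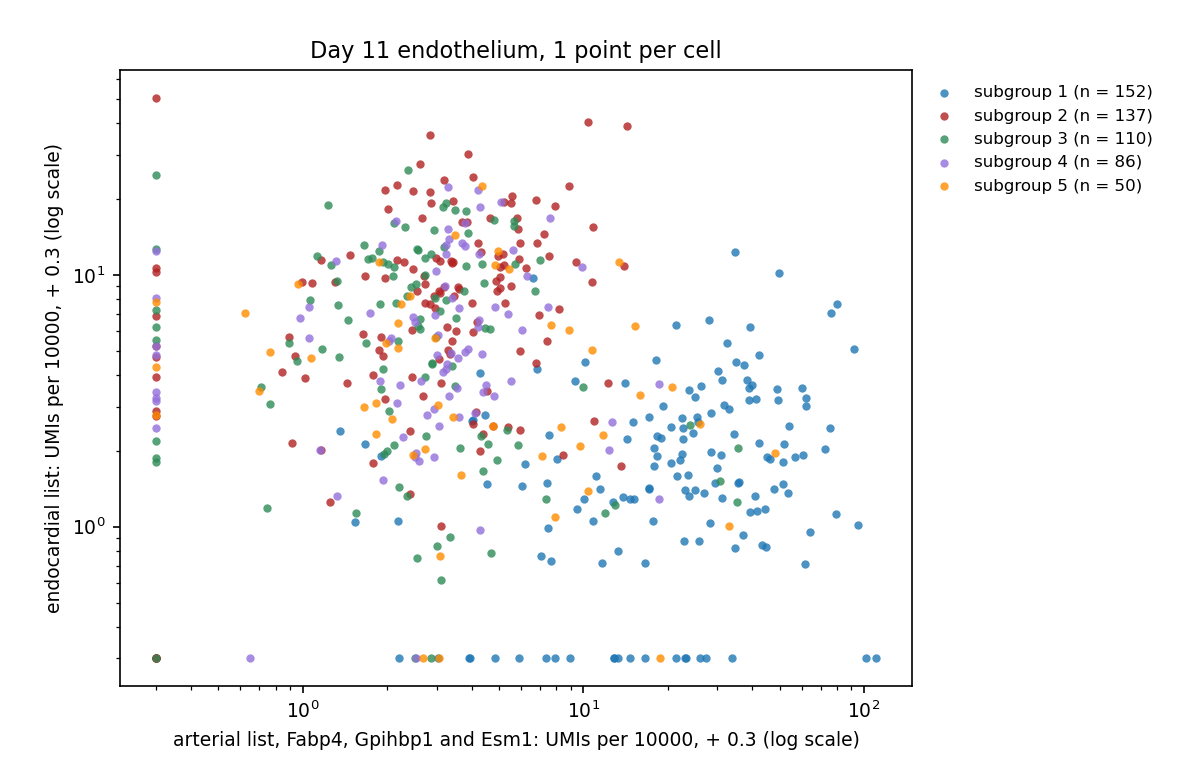
Each point is 1 of the 535 day 11 endothelial cells, with the summed UMIs of the arterial list plus *Fabp4*, *Gpihbp1* and *Esm1* per 10000 UMIs on the x axis and those of the endocardial list on the y axis (0.3 added to both, log scales), coloured by subgroup. Subgroup 1 lies to the right and low, subgroups 2 to 4 lie to the left and high, and few cells are high on both. *Fabp4*, *Gpihbp1* and *Esm1* are leading genes of subgroup 1, so its place on the x axis is partly set by that choice.

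Per-cell sums over gene lists differed between subgroup 1 and the others. *Fabp4*, *Gpihbp1* and *Esm1*, added here to the arterial list, are leading genes of subgroup 1, so part of the gap was set by that choice. The arterial list alone summed to 756 CPM in subgroup 1 and to 279, 199, 249 and 316 CPM in subgroups 2 to 5. The arterial list with *Fabp4*, *Gpihbp1* and *Esm1* had a median of 23.1 UMIs per 10000 in subgroup 1 (quartiles 12.5 and 38.7) and of 2.29 to 2.96 in the other subgroups. The endocardial list had a median of 1.49 in subgroup 1 and of 8.49, 5.89 and 4.70 in subgroups 2, 3 and 4. Subgroup 3 was spread widely, with quartiles of 1.84 and 10.8, the first below the upper quartile of subgroup 1 (2.49). In subgroup 1 22 of 152 cells had no UMI of the endocardial list, against 4 of 137 in the shallower subgroup 2.

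Interferon-induced genes were high in subgroup 2, which also had the highest summed level of macrophage genes. Macrophage UMIs were found in the other subgroups too, where 323 of 398 cells had none. *Isg15*, a ubiquitin-like protein, was at 159.9 CPM in subgroup 2 and at 12.5 to 75.7 CPM in the others. Of 8 interferon genes 6 were at least 2 times higher in subgroup 2 than in the remaining endothelium. The share over all 7609 genes with at least 10 CPM in subgroup 2 was 3.98%. The macrophage list summed to 158 CPM in subgroup 2 against 1.90 to 17.7 CPM elsewhere, but those UMIs lay in 16 of its cells, with a median of 44239 UMIs. In the other 121 cells *Isg15* was at 173 CPM, *Ifit3* at 49.1, *Npr3* at 223 and *Apoe* at 1891, against 40.2, 4.44, 75.0 and 452 CPM in cells of the other subgroups without a macrophage UMI. The levels of *Isg15*, *Ifit3*, *Npr3* and *Apoe* in subgroup 2 were thus higher in the cells with no macrophage UMI than in the 16 cells, where they were 119.9, 17.1, 56.7 and 1509 CPM. The leading gene of the subgroup, *Spp1*, which encodes osteopontin, went the other way, at 652 CPM in the 16 cells and without a UMI in the 121 others.

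On days 4, 5 and 6 the same rule found 5, 209 and 477 cells, or 0.0694%, 2.82% (2.46 to 3.22%) and 8.15% (7.47 to 8.88%) of kept cells. Median depth was higher on the earlier days, 38053 UMIs at day 5 and 37471 at day 6. With the rule applied after thinning to 5000 UMIs the share at day 11 was 4.55%. No thinned share was taken for the earlier days, so this value cannot be set beside theirs. Of the rule genes *Cdh5* was at 321 CPM at day 6 and 260.4 at day 11, *Pecam1* at 147 and 288, and *Emcn*, a sialomucin of venous and capillary endothelium, at 0.516 CPM at day 5, 203 at day 6 and 365 at day 11.

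Between day 6 and day 11 endothelium, 8282 genes reached 10 CPM on either day. At day 11 438 of them (5.29%) were at least 2 times higher and 392 (4.73%) at 0.5 times or less, with a median ratio of 0.936 (other cells, 1.01). The file headers name Cell Ranger 3.1.0 for day 6 and 6.0.1 for day 11, so ratios are set beside the same ratio in the other cells of those days. The other cells include the cells with 1 or 2 rule genes and those past the *Myl7* limit, and their levels of endothelial genes are low on both days. What those cells and free RNA add to the ratios there was not tested.

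Lipid uptake, caveolar and tip cell genes were higher at day 11. Of 7 capillary and lipid uptake genes 6 were at least 2 times higher, with a median ratio of 8.01, and of 8 tip cell genes 6 were, with a median of 4.00. On days 5, 6 and 11 *Fabp4* was at 0.206, 0.374 (8 UMIs) and 577 CPM, while in the other cells it went from 0.0439 to 9.71. *Fabp5* was at 508, 606 and 4855 CPM on those days, a ratio of 8.01 from day 6 to day 11 against 1.49 in the other cells. *Cavin2* was at 3.37 and 154.7 CPM (ratio 46.0, 36.4 to 58.9) against a ratio of 5.48 in the other cells, whereas *Cav1*, the caveolin, had a ratio of 3.44 in the endothelium and 38.7 in the other cells. *Gpihbp1* was at 2.99, 15.8 and 281 CPM, and in the other cells at 0.0501 and 2.15 on the 2 later days. Of the tip cell genes *Kcne3* went from 67.4 to 283 CPM and *Trp53i11* from 42.1 to 191, the second with a ratio of 0.844 in the other cells.

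Others of the 15 genes with the highest ratios were peptide, receptor and matrix genes. *Ramp3*, a partner of the adrenomedullin receptor, went from 2.71 to 89.7 CPM, whereas the partner *Ramp2* was level at 917 and 866 and the receptor *Calcrl* went from 123 to 60.4. *Nts* went from 1.78 to 128 CPM, *Pgf* from 3.04 to 74.3, *Col6a1* from 1.36 to 62.2 and *Nostrin*, which traffics nitric oxide synthase, from 4.86 to 61.8. *Pgf* was nearly level in the other cells (ratio 0.891). *Serpinb1a*, a serpin of leukocytes, had a ratio of 113 in the endothelium and 4.12 in the other cells. The rest were *Ifi27*, *Isg15*, *Lgals9*, *Atp2b4* and *Hist1h4d*. Interferon genes were higher at day 11 in both sets, 5 of 5 of them in the endothelium, and *Isg15* had a ratio of 65.1 in the endothelium and 66.5 in the other cells.

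Most transcription factors of the lineage were within 2 times of their day 6 level, but a few named genes were lower at day 11. In the 5 cells of day 4, which held 256315 UMIs in all, *Etv2* was at 179 CPM, a set too small to rank against day 5. *Etv2* was at 144, 34.3 and 1.31 CPM on days 5, 6 and 11, each below the one before. *Sox18* was at 45.1, 163 and 32.8 CPM and *Sox17* at 59.2, 151 and 69.1, both highest at day 6, while *Sox7* was at 66.1 and 68.9. The hyaluronan link protein *Hapln1*, a gene of cardiac jelly, was at 275 and 15.1 CPM, and the endocardial growth factor *Nrg1* at 42.3 and 8.96, against ratios of 0.121 and 1.12 in the other cells. *Plvap* was at 341 and 141 CPM at days 6 and 11, and *Fn1* at 493 and 210.2. The ratios of *Sox18*, *Sox17* and *Plvap* in the other cells were 0.252, 0.402 and 0.298, close to those in the endothelium (0.201, 0.459 and 0.413). Of 24 lineage factors 4 were at 0.5 times or less at day 11 (*Etv2*, *Gata2*, *Sox17* and *Sox18*) and 0 were at least 2 times higher, with a median ratio of 1.02. Most of the 15 lowest ratios were about as low in the other cells, among them *AC160336.1* (0.00501 in the endothelium and 0.00900 in the other cells), *Gm10076* (0.152 and 0.138), *Prtg* (0.0355 and 0.0503), *Hist1h2ap*, *Mogat2*, *Rpa3*, *Trap1a*, *Dynlt1f* and *Slc18a2*. *Bex1*, *Bex2* and *Bex4* were lower mainly in the endothelium, with ratios of 0.210, 0.141 and 0.187 against 0.686, 0.525 and 0.861 in the other cells. *Edil3*, an integrin ligand made by embryonic endothelium, was at 61.2 and 13.9 CPM.

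**Figure D5:**
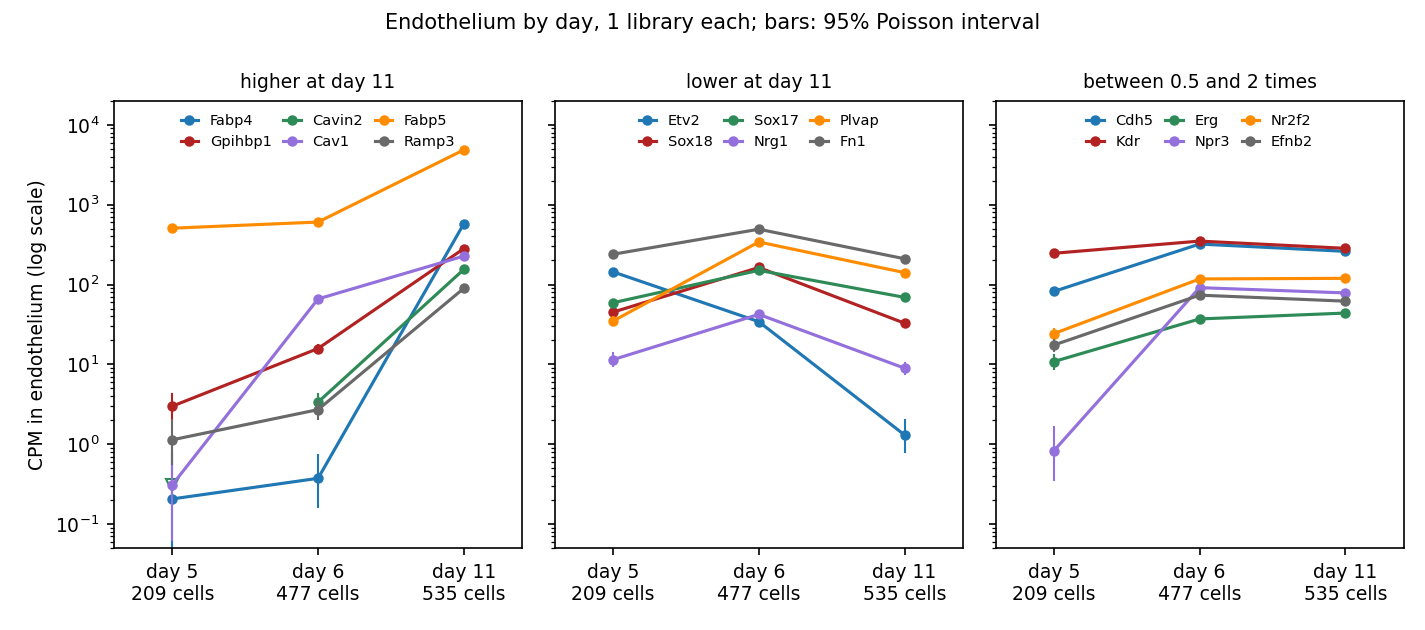
Levels of 18 genes in cells chosen by the same rule at days 5, 6 and 11 (CPM of summed UMIs, log scale, with 95% Poisson intervals; 1 library a day). The open triangle marks *Cavin2* at day 5, where no UMI was found, at the level of 3 UMIs. *Fabp4* lies under 1 CPM at days 5 and 6 and at 577 CPM at day 11, and *Etv2* lies at 144 CPM at day 5 and 1.31 CPM at day 11. Each gene of the right panel lies at day 11 within 2 times of its day 6 level. *Cdh5* in that panel is a rule gene, so its level helped to choose the cells.

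Core identity and some fate markers, such as *Npr3*, *Nr2f2* and *Efnb2*, were close on the 2 later days. Of 21 identity genes 4 were at least 2 times higher at day 11 and 1 at 0.5 times or less, with a median ratio of 1.28. None of 11 endocardial genes was at least 2 times higher, 2 were at 0.5 times or less (*Nrg1* and *Tbx20*), and *Npr3* was at 91.4 and 78.5 CPM. *Nr2f2* was at 117 and 119.6, and *Efnb2*, the arterial ephrin, at 73.6 and 61.9. Not all genes of their lists were so close. Of 8 arterial genes 2 were at least 2 times higher at day 11 and 1, *Sox17*, was at 0.5 times or less (median ratio 1.36). Of 7 venous genes 0 were at least 2 times higher and 1 was at 0.5 times or less (median ratio 0.762). The proliferation genes *Mki67* and *Top2a* were at 82.3 and 213 CPM at day 6 and 97.5 and 201 at day 11. The proliferation list as a whole was lower, with summed levels of 1622 CPM at day 6 and 1195 at day 11. Of its 12 genes 0 were at least 2 times higher and 1 was at 0.5 times or less. Their median ratio was 0.735 in the endothelium and 0.507 in the other cells.

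Counts of mesenchyme and muscle markers higher than at day 6 differed between the treatments of possible doublets. Of 8 measured mesenchyme markers 5 were at least 2 times higher in day 11 than in day 6 endothelium, with a median ratio of 4.23. When subgroup 5 was left out, 0 of 4 were, with a median of 0.336. The cardiomyocyte markers went from 4 of 6 to 0 of 5. With the 8% of cells with the highest doublet scores removed on both days instead, 2 of 3 mesenchyme markers (median 2.38) and 4 of 5 cardiomyocyte markers (median 2.68) were at least 2 times higher. Over all genes 438 (5.29%) were at least 2 times higher with all cells kept, 414 without subgroup 5 and 400 with the highest scores removed. The marker counts rest on few genes. They thus turned on which cells were removed, and the cause was not tested. Without subgroup 5 the counts of capillary and tip cell genes at least 2 times higher were still 6 and 6.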

How the data were processed

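Single-cell transcripts were measured in 1 droplet-based 3′ library per day of pooled Zx1 gastruloids. Per the labels and the file headers the authors aligned and counted the reads with Cell Ranger 3.1.0, and the header of the day 11 matrix names version 6.0.1. The deposited values are raw UMI counts per gene and cell, and depths ranged from 11318 median UMIs per barcode at day 11 to 27746 at day 5. The members, gene lists and settings were chosen with earlier results of these data known.

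Of 9584 day 11 barcodes 831 were removed for fewer than 2000 UMIs and 23 for a mitochondrial share of at least 20%. Counts were summed over cells, expressed as CPM and compared as ratios, for genes with at least 10 CPM in either set, with limits at 2 and 0.5 times. No test was made, since each day has 1 library. Named genes were those of the gene lists together with the 20 highest and 15 lowest ratios against the other cells, the 15 highest and lowest between days 6 and 11 (at least 50 CPM, without mitochondrial, ribosomal and rule genes) and the 10 leading genes of each subgroup.

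Doublets were left in. Scrublet in scanpy 1.11.5 marked 0 cells with its automatic threshold and so had not worked, and the 8% highest scores stand in for it. Subgroups came from 2000 variable genes, 30 principal components, 20 neighbours and leidenalg 0.10.2 at resolution 0.5. Listed genes, a standard set of cell cycle genes, and mitochondrial and ribosomal genes were left out. The CPM ratios and their counting intervals (Python 3.11.15, scipy 1.17.1) were checked on simulated Poisson counts, which hold no spread between cells. The clustering, thinning and doublet scores were not checked in that way. Alternatives covered the limits of the rule, depth, doublets, weighting of cells, the filter on low values and the clustering. UMIs of the GFP and tdTomato features were 0 and 0 in the endothelium.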

Additional observations from a re-analysis of the deposited data

Results flagged for a closer look

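For *Jcad* and *Laptm5* the ratio of day 11 to day 6 was above 2 in one set of cells and under 0.5 in the other, and for *Pgf*, *Plat* and *Wt1* the ratio of endothelium to other cells was above 2 at day 11 and under 0.5 at day 6. With 1 library per day none of these differences was tested. *Jcad* was 2.38 times as high in day 11 as in day 6 endothelium but 0.421 times as high in the other cells. *Laptm5*, a lysosomal protein of leukocytes, was 0.385 times as high in the endothelium and 14.1 times in the other cells. *Pgf* was 4.34 times as high in the endothelium as in the other cells at day 11 and 0.158 times at day 6. The plasminogen activator *Plat* stood at 2.02 and 0.287 times on those days. *Wt1* stood at 2.84 and 0.220 times.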

How the results depend on the processing

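The share of endothelium moved from 6.13% to 6.76% with at least 2 rule genes, 4.55% after thinning and 5.59% without subgroup 5, an alternative chosen after seeing the data, and by less than its counting interval under the other limits tried. With no filter on low values 2192 genes were higher and 9908 lower than in the other cells, and 3026 higher and 3759 lower than at day 6. With at least 50 CPM in either set, which leaves fewer genes to count, these were 357, 325, 149 and 92. All other settings gave counts within 1.5 times. Single ratios were less stable. Against the other day 11 cells 220 of 325 left their counting interval with the mean of per-cell CPM, and 216 with the highest doublet scores removed. Against day 6 122 of 291 and 149 of 290 did. With those scores removed the median ratio of the identity list against the other cells went from 58.0 to 115. Without subgroup 5 *Mfap4*, a microfibril protein, went from 2.14 to 0.747 times its day 6 level. Other clusterings gave 4 to 6 subgroups. Each had 1 group with most *Fabp4* and another with most *Npr3*, and at resolution 0.3 the cells of subgroup 4 were divided between these. No paired analysis was possible because each day has 1 library. Leaving out a library was not possible either, so no value here has an error beyond counting.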
